A study of Mus musculus with 14 samples.

Results

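The genes described here encode ion exchangers and cotransporters of 6 solute carrier families: Slc4 and Slc26, which move bicarbonate, chloride and other anions, Slc9, which exchanges sodium for protons, Slc8 and Slc24, which exchange sodium for calcium, and Slc12, which moves chloride together with sodium or potassium. They were chosen by symbol alone. Every probe set with a single gene symbol of these families was taken, and Slc4a11 and Slc4a4 were left out. The choice gave 83 of the 45101 probe sets on the array and 42 of 18194 genes. After a filter on low signal, 34 probe sets of 25 genes could be tested. The 17 other genes are accounted for at the end.

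Whole corneal RNA of single mice, both corneas pooled, was hybridized to Affymetrix mouse arrays. The study compared corneas that lost Klf5, a Kruppel-like transcription factor, with littermate corneas before eyelid opening and in young adults. The mice were on a mixed background, and all of them carried Klf5 alleles flanked by loxP sites on both chromosomes. Klf5CN mice also carried the Le-Cre transgene, whose Pax6 control elements drive Cre in the ocular surface ectoderm and its derivatives (corneal epithelium, conjunctiva, lens and eyelid epithelium), so cells of the stroma and endothelium are not expected to lose the gene. The mice called WT carried the same loxP alleles without Cre. There were 3 PN11 WT, 3 PN11 Klf5CN, 4 PN56 WT and 4 PN56 Klf5CN arrays, where PN is the postnatal day.

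Ion carriers of these families set the pH, volume and chloride content of cells. In the cornea, a sodium-potassium-chloride cotransporter on the basolateral side of the epithelium loads chloride that leaves toward the tears, and bicarbonate transport by the endothelium, powered by the sodium pump, draws fluid out of the stroma and keeps it thin and clear. Sodium-proton exchangers act at the cell surface or, for Slc9a7, Slc9a8 and Slc9a9, in the membranes of Golgi and endosomes. Slc24 carriers are known from sensory cells, with Slc24a1 the exchanger of rod photoreceptors.

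Values are log2 of the deposited array signal, and signals under 10 were set to 10, which is 3.32 on this scale. A probe set was called Present where the array software detected it above background. Where a gene had several tested probe sets, the one of highest mean signal stands for it. Higher and lower mean that the two-sided limma test, with adjustment over all 29416 tested probe sets, reached an adjusted p under 0.05 together with a more than 2-fold distance between means. A log2 difference of 1 is 2-fold. Levels of different probe sets are not compared, since each probe set has its own sensitivity. In whole tissue, fewer cells of a type and less RNA per cell cannot be told apart.

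The Klf5 probe set with the largest loss read 8.91 to 9.21 in PN11 WT and 3.67 to 4.19 in PN11 Klf5CN, and 9.91 to 10.56 in PN56 WT and 3.32 to 6.14 in PN56 Klf5CN. Another Klf5 probe set fell less, from a range of 8.07 to 8.51 to 7.06 to 7.80 at PN11 and from 9.22 to 9.76 to 8.69 to 9.59 at PN56. The corneal epithelium markers were all measured (12 of 12, none at the lowest value kept in any group), as were those of the stromal keratocytes. The ratio of 3-prime to 5-prime control signal, a measure of RNA integrity, stood apart in PN11 Klf5CN replicate 3 (Actb log2 1.62, Gapdh 6.18) and PN56 Klf5CN replicate 4 (1.4 and 0.65), against 0.23 to 0.47 and -0.54 to -0.24 on the 12 other arrays. Transcripts of photoreceptors, a list chosen after the data had been seen, were high on 3 arrays. On the others their 11 genes summed to a signal of 146 to 743. That range held 146 to 289 in PN56 WT and 369 and 419 in PN56 Klf5CN. The sum was 1890 on PN11 Klf5CN replicate 1, and 1396 and 3095 on PN56 Klf5CN replicates 1 and 2. Where leaving these arrays out changes a call, both values are given. Markers of leukocytes were also higher in Klf5CN corneas, 7 of 10 at PN11 and 8 of 10 at PN56. Their summed signal was 2560 to 3184 in PN11 WT, 7228 to 11487 in PN11 Klf5CN, 734 to 1325 in PN56 WT and 2010 to 6916 in PN56 Klf5CN. At PN56, 4 of 12 keratocyte markers were higher and 1 lower in Klf5CN, 2 of 9 vessel markers were higher, and 1 of 9 endothelium markers was higher and 2 were lower. The part of these cells in the results below was not tested.

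The anion exchanger gene Slc26a4 was higher in Klf5CN at both ages. Slc9a2, a sodium-proton exchanger gene, and Slc24a1 were higher at PN56. These 3 genes passed the filter on low signal (over 20, or 4.32 on the log2 scale, on 3 arrays) only through Klf5CN arrays. Above it were 2 of 7 WT and 7 of 7 Klf5CN arrays for Slc26a4, 0 and 3 for Slc9a2, and 0 and 4 for Slc24a1. A gene that enters in this way can only come out higher in Klf5CN, so the direction of these calls is no result about the family. Without the filter Slc26a4 (adjusted p = 0.0476 at PN11 and 0.0118 at PN56) and Slc9a2 (0.0037) passed and Slc24a1 did not (0.070). At PN11, 1 of 25 member genes was higher and 0 were lower, where over all 13660 genes tested 3.8% were higher and 1.48% lower. At PN56, 3 of 25 were higher and 0 lower, against 7.1% and 1.63% of all genes. These counts are near the shares of all genes. At an unadjusted p below 0.05 there were 7 of the 25 (28%) at each age, in either direction, where all genes gave 24.1% at PN11 and 34.5% at PN56. Counted as probe sets, 1 of 34 was higher and 0 lower at PN11 (2.77% and 1.16% of all probe sets), and 3 were higher and 0 lower at PN56 (5.67% and 1.44%). Over the 25 genes the median log2 difference was 0.21 at PN11, where that of all tested genes was -0.00, and 0.36 at PN56, where it was 0.02. Subtraction of array medians moved the PN56 median of all genes to -0.21 and that of the members to 0.13. WT arrays alone would not have passed the filter for 5 of the 25 genes, among them Slc4a10 (0 WT and 3 Klf5CN arrays above it). Klf5CN arrays alone would not have passed it for 2, so the sign of these medians is no result about the family.

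**Figure D1:**
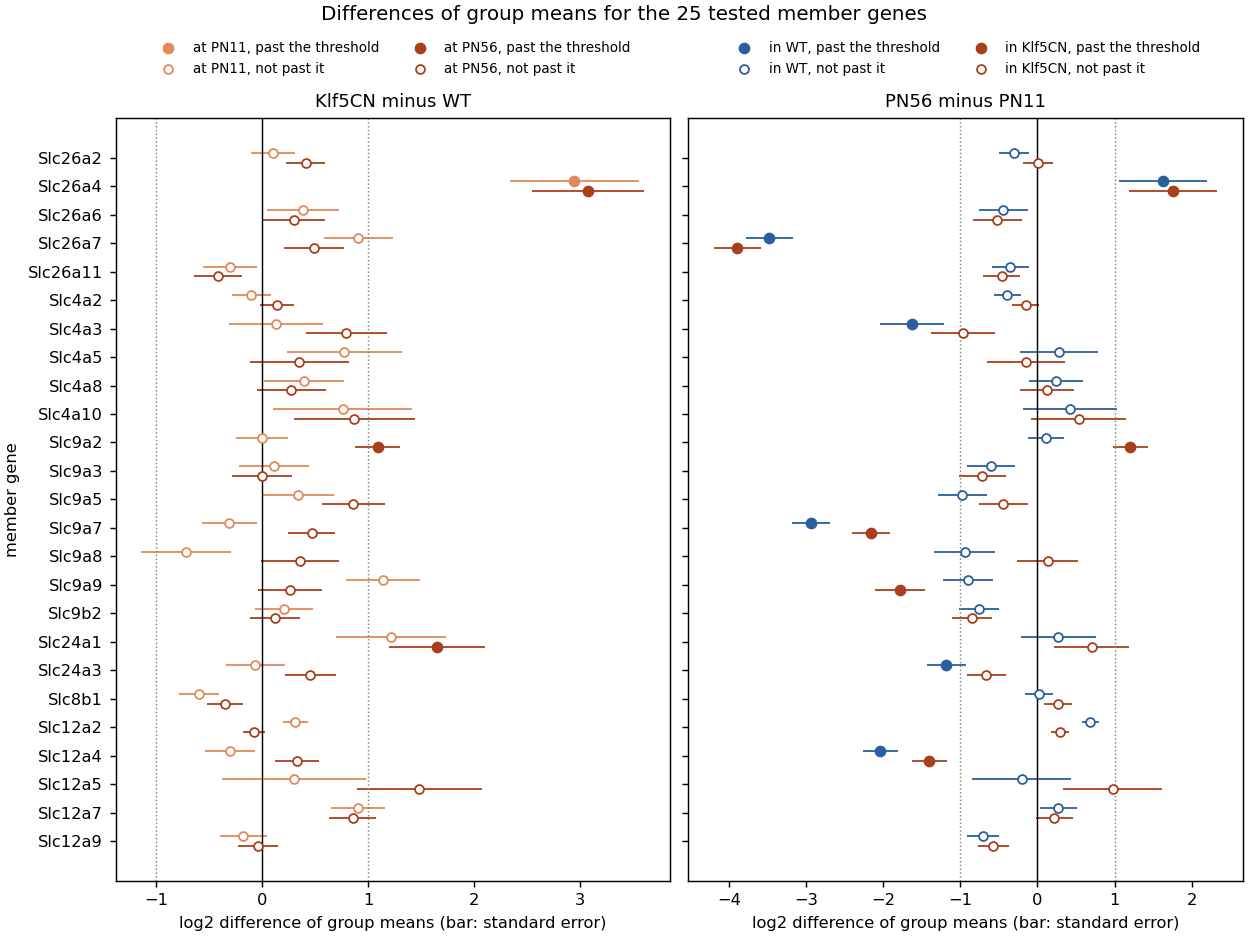
Log2 differences of group means (horizontal axis) for each of the 25 tested member genes (vertical axis), with bars of 1 standard error. Left, Klf5CN minus WT at PN11 and PN56; right, PN56 minus PN11 in WT and in Klf5CN; filled points passed the threshold and dotted lines mark 2-fold. Slc26a4 lies near 3 at both ages on the left, while on the right Slc26a7, Slc9a7 and Slc12a4 lie to the left of -1 in both genotypes.

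Among the anion exchangers, Slc26a4 (pendrin), which exchanges chloride for bicarbonate or iodide and is known from the inner ear, thyroid and kidney, showed the largest Klf5CN differences of the member genes. At PN11 it read 3.32, 3.32 and 3.51 in WT, Present on 0 of 3 arrays, and 6.79, 5.67 and 6.54 in Klf5CN, Present on all 3. The groups did not overlap. The measured level in Klf5CN was 7.71-fold higher (log2 2.95, SE 0.61, limma adjusted p = 0.0102). PN11 WT was not above background, so the true fold is not known. At PN56 Slc26a4 read 3.89, 3.97, 6.44 and 5.74 in WT, Present on 2 of 4 arrays, and 8.93, 8.67, 7.28 and 7.49 in Klf5CN. Even the lowest Klf5CN array lay above the highest WT array, though the WT arrays fell into a low and a high pair. The difference was 8.47-fold (log2 3.08, SE 0.53, limma adjusted p = 0.0014). Without the 3 arrays of most photoreceptor transcript it was 2.72 at PN11 (adjusted p = 0.0415) and 2.37 at PN56, which no longer passed (adjusted p = 0.0519). With signals under 32 set to 32 the PN11 difference was 1.33 and did not pass (adjusted p = 0.17). The effects at both ages differed by 0.13 (SE 0.81, adjusted p = 0.97 in the test of the difference).

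**Figure D2:**
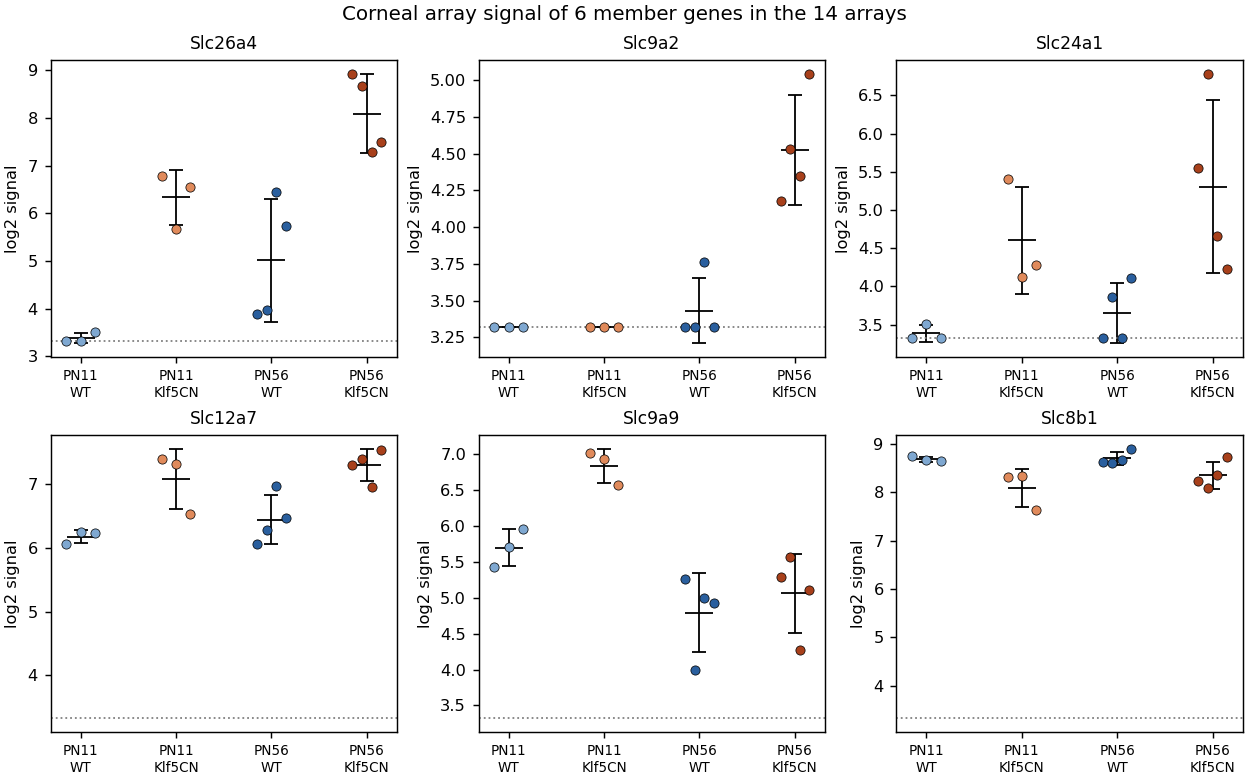
Log2 signal (vertical axis) of 6 member genes by group, 1 point per array, with the mean and SD as a horizontal mark and bar, and the lowest value kept (3.32) as a dotted line. Every PN56 Klf5CN point of Slc26a4, Slc9a2 and Slc24a1 lies above every PN56 WT point, and both PN11 groups of Slc9a2 lie on the dotted line.

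Markers of the conjunctiva were high on the same PN56 Klf5CN arrays as Slc26a4. The 6 measured genes of that list summed to 8271 and 6362 on replicates 1 and 2, where Slc26a4 was highest, and to 4276 and 4260 on replicates 3 and 4. In PN56 WT the sum was 2926, 2192, 3070 and 4307. At PN11 it was 4260 to 4981 in WT and 3843 to 3977 in Klf5CN, with 0 genes of the list higher in Klf5CN and 1 lower, and the goblet cell mucin gene Muc5ac was at the lowest value kept in both genotypes. The part of conjunctival tissue in the Slc26a4 differences was not tested.

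The promoter window of Slc26a4 is shown because this gene had the largest Klf5CN difference, that of Slc24a1 because it was also higher, and those of Slc9a7 and Slc12a4 because both fell steeply with age. Each is the 250 bases before the annotated start, 5′ to 3′ in the direction of the gene, from RefSeq on GRCm38.p6, with capitals where the letters match a motif on either strand. The motifs searched were CACCC, the GC-rich CCGCCC and the looser CCNCNCCC. CACCC and GC-rich boxes are the kinds of sequence that Kruppel-like factors are known to bind. The windows are chr12:31559985-31560234 on the minus strand for Slc26a4, chr9:64951621-64951870 on the minus strand for Slc24a1, chrX:20291828-20292077 on the minus strand for Slc9a7 and chr8:105966116-105966365 on the minus strand for Slc12a4.
Slc26a4: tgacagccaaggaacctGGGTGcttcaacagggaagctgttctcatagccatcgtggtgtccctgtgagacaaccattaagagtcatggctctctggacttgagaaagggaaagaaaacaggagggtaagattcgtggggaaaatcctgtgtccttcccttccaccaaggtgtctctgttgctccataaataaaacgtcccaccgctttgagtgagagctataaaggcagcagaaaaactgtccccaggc
Slc24a1: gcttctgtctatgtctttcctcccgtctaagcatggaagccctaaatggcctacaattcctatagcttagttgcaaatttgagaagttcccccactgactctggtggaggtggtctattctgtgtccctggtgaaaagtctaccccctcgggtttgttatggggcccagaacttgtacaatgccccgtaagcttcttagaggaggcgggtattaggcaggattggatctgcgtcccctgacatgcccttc
Slc9a7: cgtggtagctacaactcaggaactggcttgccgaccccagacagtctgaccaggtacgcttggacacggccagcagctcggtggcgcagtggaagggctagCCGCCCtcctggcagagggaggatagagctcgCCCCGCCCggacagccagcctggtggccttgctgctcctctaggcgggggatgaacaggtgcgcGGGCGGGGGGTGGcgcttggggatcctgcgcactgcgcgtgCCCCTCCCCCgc
Slc12a4: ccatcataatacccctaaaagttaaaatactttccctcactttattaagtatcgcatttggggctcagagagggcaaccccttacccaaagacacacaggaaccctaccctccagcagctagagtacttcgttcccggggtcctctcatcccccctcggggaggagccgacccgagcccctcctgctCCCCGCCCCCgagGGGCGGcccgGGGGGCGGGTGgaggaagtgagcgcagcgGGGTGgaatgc
The Slc26a4 window held 1 CACCC match and 0 of the other motifs, and the Slc24a1 window held 0 of each. Slc9a7 had 1 CACCC, 3 CCGCCC and 5 CCNCNCCC matches, and Slc12a4 had 2, 3 and 3, with overlaps between motifs counted for each. Slc9a2, also higher at PN56, and Slc26a7, which fell furthest with age, had no window to search. Of 42 windows that matched 33 member genes, 29 held CACCC, 18 CCGCCC and 25 CCNCNCCC. Over all 32851 windows of this length the shares were 52.0%, 32.7% and 45.9%. A match is no evidence of binding, and the arrays do not measure it.

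Slc26a7, an anion carrier known from gastric parietal cells and kidney, read 9.93, 9.83 and 9.86 in PN11 WT and 10.73, 10.64 and 10.99 in PN11 Klf5CN. These groups did not overlap, but the difference (log2 0.91, SE 0.33) did not pass (adjusted p = 0.12). The other Slc26 genes tested (Slc26a2 and Slc26a11, which carry sulfate, and Slc26a6, a chloride, bicarbonate and oxalate exchanger) differed by -0.30 to 0.38 at PN11 and by -0.42 to 0.41 at PN56. None passed the test. All 3 tested probe sets of Slc26a2 leaned the same way at PN56, by 0.36 to 0.47, with adjusted p-values of 0.11 to 0.20.

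Of the bicarbonate carriers, Slc4a2, a widely expressed chloride-bicarbonate exchanger, read 8.44 ± 0.11 in PN11 WT (n = 3), 8.34 ± 0.19 in PN11 Klf5CN (n = 3), 8.05 ± 0.22 in PN56 WT (n = 4) and 8.19 ± 0.32 in PN56 Klf5CN (n = 4). Its Klf5CN differences were -0.10 (SE 0.18) and 0.14 (SE 0.16), with adjusted p-values of 0.83 and 0.61. Slc4a3, the exchanger of heart and neurons, stood 0.13 higher at PN11 and 0.79 higher at PN56 (adjusted p = 0.92 and 0.18). The tested probe sets of Slc4a5 and Slc4a8, sodium-coupled bicarbonate carriers, were Present on 0 of 14 arrays, so their values carry no level. In all, 0 of 5 Slc4 genes passed at either age.

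Slc9a2, a sodium-proton exchanger of the apical membrane in gut and other epithelia, was at the lowest value kept on all 6 PN11 arrays. At PN56 it read 3.32, 3.32, 3.77 and 3.32 in WT, Present on 1 of 4, and 4.18, 4.53, 4.35 and 5.04 in Klf5CN, Present on 4 of 4. The genotypes did not overlap at PN56. The difference was log2 1.09 (SE 0.21, limma adjusted p = 0.0032), just over the 2-fold limit. Without PN56 Klf5CN replicate 4, the array of weaker RNA, it was 0.92 and without the 3 photoreceptor arrays 1.26. It was 0.96 after quantile normalization and 0.87 after subtraction of array medians, all with adjusted p-values below 0.05. With 16 added to each signal it was 0.73, and with signals under 32 set to 32 it was 0.01 (adjusted p = 0.46). The call was lost in 6 of 27 alternatives, among them every one above with a difference under 1, which is short of 2-fold. The test of the difference between ages gave 1.09 (SE 0.32, adjusted p = 0.20). These signals are low, and a change below the lowest value kept cannot be seen.

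Slc9a9, an exchanger of recycling endosomes, was near the threshold at PN11. It read 5.44, 5.71 and 5.96 in WT and 7.02, 6.93 and 6.57 in Klf5CN, without overlap (log2 1.14, SE 0.35, adjusted p = 0.068). It passed with only the PN11 groups fitted (adjusted p = 0.0330) and with signals under 32 set to 32 (0.0036). It also passed with PN56 WT replicate 2 or PN56 Klf5CN replicate 3 left out of the common fit (0.0398 and 0.0290). With the mean of tested probe sets it passed too, but it had a single tested probe set, so its values were unchanged. Under the methods' rank rule (more than 2-fold, called Present on at least 3 arrays, and a Mann-Whitney test) it passed as well. The rule was applied without its criterion on pairwise array comparisons. With 3 arrays against 3, its rank test asks only for groups without overlap. Slc9a9 did not pass without the 3 photoreceptor arrays (1.05, adjusted p = 0.16). At PN56 the difference was 0.27 (adjusted p = 0.60). The other 5 Slc9 genes tested differed by -0.72 to 0.34 at PN11 and by -0.00 to 0.86 at PN56, and 0 of them passed.

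Among the calcium exchangers, Slc24a1 moved with photoreceptor transcripts. It read 3.32, 3.51 and 3.32 in PN11 WT and 5.40, 4.13 and 4.28 in PN11 Klf5CN, and 3.32, 3.86, 3.32 and 4.11 in PN56 WT and 5.55, 6.79, 4.66 and 4.23 in PN56 Klf5CN. The highest array in each Klf5CN group was the one with the most photoreceptor signal of its group. The PN56 difference was log2 1.65 (SE 0.45, limma adjusted p = 0.0229). It was 0.79 without the 3 photoreceptor arrays (adjusted p = 0.13) and 0.58 with signals under 32 set to 32 (adjusted p = 0.28). It was also lost with PN56 Klf5CN replicate 1 or 2, or PN56 WT replicate 1 or 3, left out, at 1.57, 1.16, 1.54 and 1.54 (adjusted p = 0.064, 0.054, 0.070 and 0.057), and with only the groups compared (0.077). At PN11 the difference was 1.22 (adjusted p = 0.20).

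A pair of further genes, named after their values were seen, was highest on PN56 Klf5CN replicate 2, the array of most photoreceptor signal. Slc12a5, the potassium-chloride cotransporter of neurons, read 5.04, 5.17, 4.58 and 5.27 in PN56 WT and 6.77, 8.65, 4.60 and 5.97 in PN56 Klf5CN. The groups overlapped, and the difference (1.48, SE 0.59) did not pass (adjusted p = 0.11). Slc4a10, a sodium-coupled bicarbonate carrier of neurons and choroid plexus, reached 6.90 on PN56 Klf5CN replicate 2 alone, with 3.51 to 4.45 on the other arrays of its group. At PN11 the Klf5CN differences of Slc12a5 and Slc4a10 were 0.30 and 0.76 (limma adjusted p = 0.86 and 0.57). Of the 11 photoreceptor genes measured, 4 (Sag, Pde6b, Nrl and Gnat1) were higher in PN56 Klf5CN, the rod transducin gene Gnat1 by 3.00 (SE 0.67, adjusted p = 0.0078), and none was at the lowest value kept throughout that group. The 6 measured neuron genes summed to 409, 2069, 140 and 149 in PN56 Klf5CN and to 97.6 to 143 in PN56 WT. Whether retinal tissue accounts for the levels of Slc24a1, Slc12a5 and Slc4a10 was not tested.

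**Figure D3:**
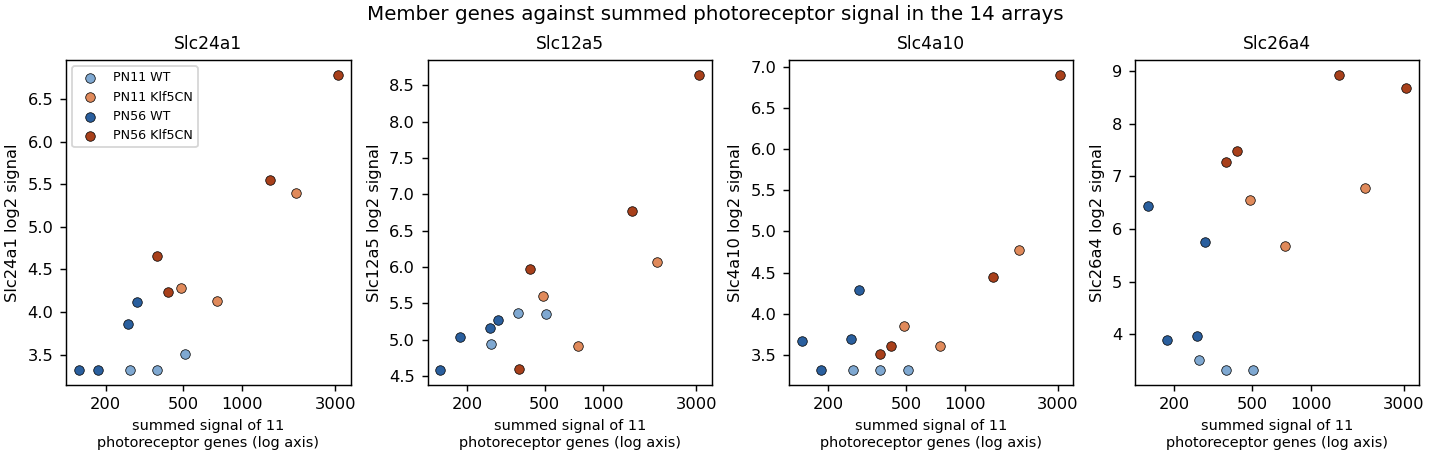
Log2 signal of 4 member genes (vertical axes) against the summed linear signal of 11 photoreceptor genes (horizontal log axis) on the 14 arrays, coloured by group. The array at 3095 is also the highest for Slc24a1, Slc12a5 and Slc4a10. Slc26a4 read 7.28 and 7.49 on the PN56 Klf5CN arrays at 369 and 419, beside PN56 WT arrays at 146 to 289.

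The mitochondrial sodium-calcium exchanger gene Slc8b1 was the only Slc8 gene tested. It read 8.75, 8.68 and 8.64 in PN11 WT and 8.32, 8.33 and 7.63 in PN11 Klf5CN. Every Klf5CN array was lower, by 0.60 on average (SE 0.19), which did not pass (adjusted p = 0.085). The lowest value came from the array of weak RNA. At PN56 the groups overlapped and the difference was -0.35 (SE 0.17, adjusted p = 0.18). Slc24a3, a potassium-dependent exchanger, differed by -0.06 and 0.46 (adjusted p = 0.94 and 0.22).

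In the cation-chloride family, Slc12a7, a potassium-chloride cotransporter that lets cells shed volume, was higher in Klf5CN at PN56 but by less than 2-fold. It read 6.06, 6.25 and 6.23 in PN11 WT, 7.40, 7.32 and 6.53 in PN11 Klf5CN, 6.07, 6.28, 6.97 and 6.47 in PN56 WT and 7.31, 7.40, 6.96 and 7.54 in PN56 Klf5CN. The PN11 groups did not overlap (log2 0.91, SE 0.26, adjusted p = 0.0504). Without PN11 Klf5CN replicate 3, the array of weakest RNA, the difference was 1.18 and passed (adjusted p = 0.0115). At PN56 the groups just overlapped and the difference was 0.86 (SE 0.22, adjusted p = 0.0177), and 1.03 without PN56 WT replicate 3 (adjusted p = 0.0066). Its other tested probe set, 1449011_at, was Present on 2 of 14 arrays, both PN56 Klf5CN. At PN11 it gave 0.68 (adjusted p = 0.28), and 1.10 without both arrays of weak RNA (adjusted p = 0.0434), between groups that were Present on 0 arrays.

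Slc12a2, the cotransporter that loads epithelial cells with chloride, was read by 3 probe sets that agreed in sign but not in size. Between genotypes they stood 0.10 to 0.39 higher in Klf5CN at PN11 and 0.08 to 0.45 lower at PN56. On 1448780_at, PN56 WT read 11.16, 11.12, 11.21 and 10.93 and PN56 Klf5CN 10.76, 10.73, 10.68 and 10.47. The groups did not overlap, with a log2 difference of -0.44 (SE 0.12, adjusted p = 0.0186), short of 2-fold. Its test of the difference between ages gave -0.83 (SE 0.18, adjusted p = 0.060), which passed at 0.042 without PN56 Klf5CN replicate 3.

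Over the 25 genes, none passed the test of whether the Klf5CN effect differed between PN11 and PN56, where 0.286% of all genes did in the higher and 0.278% in the lower direction. At an unadjusted p below 0.05 there were 3 (12%), beside 12.5% of all genes. Over probe sets the shares were 0.211% and 0.187%, and 0 of 34 passed. The same test asks whether the change with age differed between WT and Klf5CN. The smallest adjusted p among member genes was 0.20, for Slc9a2.

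More members passed between PN11 and PN56, as did more of all genes. In WT, 5 of 25 genes were lower at PN56 (Slc26a7, Slc9a7, Slc12a4, Slc4a3 and Slc24a3) and 1 was higher (Slc26a4), against 15.6% and 4.37% of all genes. In Klf5CN, 4 were lower (Slc26a7, Slc9a7, Slc9a9 and Slc12a4) and 2 higher (Slc26a4 and Slc9a2), against 13.4% and 4.8%. The members' counts are near these shares. Slc9a2 passed the filter on low signal only through PN56 Klf5CN arrays, so the direction of its call is no result. As probe sets, 4 of 34 were higher and 5 lower in each genotype, where 10.2% of all probe sets were higher and 12.3% lower in WT, and 10.4% higher and 10.6% lower in Klf5CN. Among them, Slc12a7 probe set 1449011_at, higher in WT (1.31, adjusted p = 0.0041), was Present on 0 WT arrays. Slc26a7 probe set 1425841_at, lower in Klf5CN, was Present on 0 Klf5CN arrays. The median difference of the 25 genes was -0.39 in WT and -0.15 in Klf5CN, beside -0.11 and -0.07 for all genes. The 3 genes that fell in both genotypes, Slc26a7, Slc9a7 and Slc12a4, passed under every alternative tried.

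**Figure D4:**
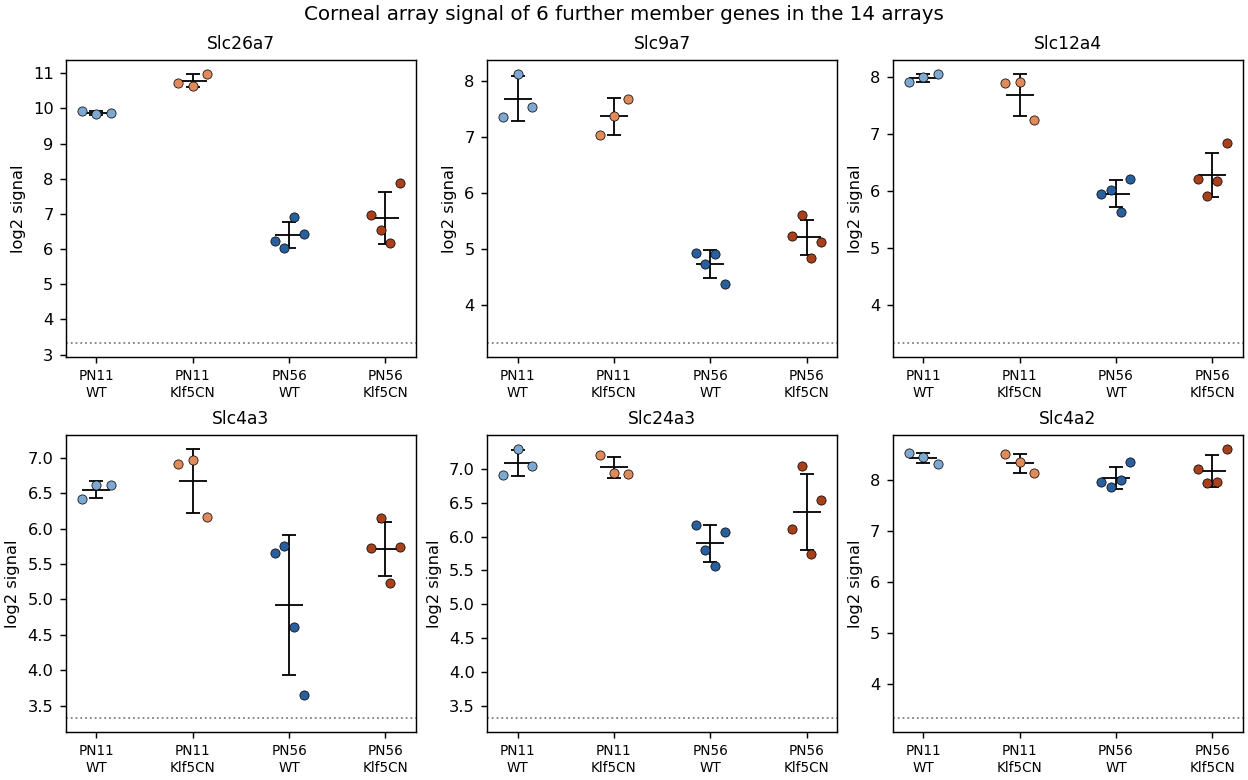
Log2 signal (vertical axis) of 6 further member genes by group, 1 point per array, with the mean and SD as a horizontal mark and bar, and the lowest value kept (3.32) as a dotted line. All PN56 points of Slc26a7, Slc9a7 and Slc12a4 lie below all PN11 points, and the PN56 WT points of Slc4a3 spread from 3.66 to 5.75.

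Slc26a7 fell furthest. From the PN11 values given above it went to 6.22, 6.04, 6.91 and 6.43 in PN56 WT and 6.95, 6.55, 6.17 and 7.88 in PN56 Klf5CN. The fall was 11.1-fold in WT (log2 -3.48, SE 0.30, adjusted p = 8.0e-07) and 14.9-fold in Klf5CN (log2 -3.89, SE 0.30, adjusted p = 4.3e-07). Another Slc26a7 probe set, 1425841_at, gave -0.44 and -1.14, but it was Present on 0 of 14 arrays and carries no level. Its Klf5CN value passed the test (adjusted p = 0.0045) and was -0.86 without the 3 photoreceptor arrays (adjusted p = 0.11).

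Slc26a4 went the other way. In WT it rose from 3.38 ± 0.11 (n = 3), a level not above background, to 5.01 ± 1.28 (n = 4). The measured rise was 3.09-fold (log2 1.63, SE 0.57, limma adjusted p = 0.0324). The call did not hold when PN56 WT replicate 3 or 4 (1.15 and 1.38) or PN11 WT replicate 1, 2 or 3 (1.60, 1.60 and 1.69) was left out, with adjusted p-values of 0.067 to 0.096. In Klf5CN it rose from 6.33 ± 0.59 (n = 3) to 8.09 ± 0.83 (n = 4), by 1.76 (SE 0.57, adjusted p = 0.0234). That call was lost without PN56 Klf5CN replicate 1 or 2 or PN11 Klf5CN replicate 2 (1.48, 1.57 and 1.43), and the rise was 1.28 without the 3 photoreceptor arrays (adjusted p = 0.20).

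Slc4a3 fell in WT from 6.42, 6.61 and 6.62 to 5.66, 5.75, 4.61 and 3.66. It was Present on 0 of 4 PN56 WT arrays, so the measured fall of 3.10-fold (log2 -1.63, SE 0.41, limma adjusted p = 0.0053) may not be the true one. In Klf5CN it stood 0.97 lower at PN56 (adjusted p = 0.076). It passed there without PN11 Klf5CN replicate 3 (-1.23, adjusted p = 0.0492), and after quantile normalization or subtraction of array medians (adjusted p = 0.0461 and 0.0332). Slc4a2 differed by -0.39 in WT (adjusted p = 0.085).

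Of the intracellular sodium-proton exchangers, Slc9a7, which resides in the trans-Golgi network, read 7.36, 8.13 and 7.54 in PN11 WT and 4.93, 4.74, 4.91 and 4.39 in PN56 WT. In PN11 Klf5CN it read 7.03, 7.38 and 7.68, and in PN56 Klf5CN 5.24, 5.61, 4.85 and 5.13. The ages did not overlap in either genotype. The fall was 7.66-fold in WT (log2 -2.94, SE 0.24, adjusted p = 4.6e-07) and 4.46-fold in Klf5CN (log2 -2.16, SE 0.24, adjusted p = 1.0e-05). The difference between both falls was 0.78 (SE 0.34, adjusted p = 0.45). Slc9a9 fell in Klf5CN by 1.78 (SE 0.33, adjusted p = 0.00058), from the PN11 values given above to 5.29, 5.57, 4.28 and 5.11. In WT it stood 0.91 lower, short of 2-fold (adjusted p = 0.0359), and passed without PN56 WT replicate 1 or PN11 WT replicate 1 (-1.06 and -1.04). Slc9a2 rose in Klf5CN 2.30-fold as measured (limma adjusted p = 0.00081), from arrays that were all at the lowest value kept. It had passed the filter only through PN56 Klf5CN arrays, so it could only come out higher here. With signals under 32 set to 32 the rise was 0.01 (adjusted p = 0.40). In WT Slc9a2 differed by 0.11. Golgi exchanger Slc9a8 had a pair of tested probe sets that went in opposite directions in WT, by -0.94 and 0.75, and neither passed.

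Slc24a3 fell in WT from 6.91, 7.29 and 7.05 to 6.17, 5.80, 5.57 and 6.07 (log2 -1.18, SE 0.26, adjusted p = 0.0019). In Klf5CN it stood 0.66 lower (adjusted p = 0.053), with overlap between ages. Slc8b1 differed by 0.02 in WT and 0.26 in Klf5CN (adjusted p = 0.95 and 0.26).

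Slc12a4, a potassium-chloride cotransporter found in most cells, read 7.91, 8.0 and 8.05 in PN11 WT and 5.94, 6.01, 5.63 and 6.21 in PN56 WT. In PN11 Klf5CN it read 7.89, 7.91 and 7.25, and in PN56 Klf5CN 6.21, 5.91, 6.17 and 6.83. All PN56 arrays lay below all PN11 arrays. The fall was 4.11-fold in WT (log2 -2.04, SE 0.22, adjusted p = 5.9e-06) and 2.64-fold in Klf5CN (log2 -1.40, SE 0.22, adjusted p = 0.00020), with a difference between falls of 0.64 (SE 0.32, adjusted p = 0.51).

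Slc12a2 rose with age on each of its probe sets. The probe set that stands for the gene, 1417622_at, went from 11.49, 11.54 and 11.39 to 12.15, 12.11, 12.16 and 12.21 in WT, by 0.68 (SE 0.11, adjusted p = 0.00020), which is short of 2-fold. On 1417623_at, WT went from 7.94 ± 0.37 (SD, n = 3) to 10.26 ± 0.18 (SD, n = 4), a 4.99-fold rise (log2 2.32, SE 0.18, adjusted p = 2.1e-07). On 1448780_at the WT rise was 3.79-fold (log2 1.92, SE 0.13, adjusted p = 6.4e-08). In Klf5CN the 3 rises were 0.29, 1.77 and 1.09, and the last was 0.98 without PN11 Klf5CN replicate 2. The gene is therefore not among the calls counted above, although 2 of its 3 probe sets passed in each genotype. Which transcripts each probe set reads was not analysed here.

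**Figure D5:**
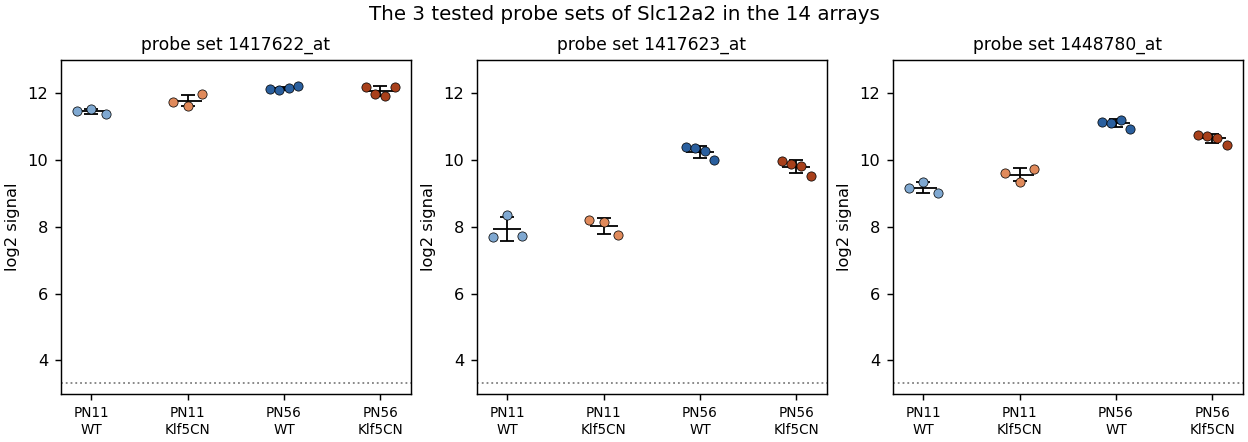
Log2 signal (vertical axis) on the 3 tested Slc12a2 probe sets by group, 1 point per array, with the mean and SD as a horizontal mark and bar. The change from PN11 WT to PN56 WT is 0.68 on 1417622_at, 2.32 on 1417623_at and 1.92 on 1448780_at.

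Markers of other corneal cells moved in the same comparison. Of 12 keratocyte markers, 11 were lower at PN56 than at PN11 in WT and 11 in Klf5CN, and their summed signal went from 54589 to 60625 in PN11 WT to 7859 to 12084 in PN56 WT. In Klf5CN it went from 51922 to 60731 at PN11 to 22038, 15534, 7858 and 36794 on PN56 replicates 1 to 4. Slc26a7 in PN56 Klf5CN had the same order of arrays as that sum. Slc12a4 was also highest on replicate 4, an array of weaker RNA, but did not keep the order on the others. Slc9a7 and Slc9a9 were highest on replicate 2. All 9 measured vessel markers were lower in WT and 6 in Klf5CN. Of 9 endothelium markers, 2 were higher and 1 lower in WT, and 4 were lower in Klf5CN. No marker of keratocytes, vessels or endothelium was at the lowest value kept throughout a group. The part of these cells in the falls of Slc26a7, Slc9a7, Slc9a9, Slc12a4, Slc4a3 and Slc24a3 was not tested.

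The proteins that work beside the carriers were followed through 75 listed genes, of which 59 could be tested. In Klf5CN against WT, 4 were higher and 1 lower at PN11, and 6 were higher and 0 lower at PN56, beside 3.8% of all genes higher and 1.48% lower in the younger corneas, and 7.1% and 1.63% in the adult ones. Carbonic anhydrases, which supply bicarbonate and protons, made up most of the PN11 calls: Car2 (1.85, SE 0.51, adjusted p = 0.0439), Car13 (1.53) and Car12 (1.41) were higher. Ano1, a calcium-activated chloride channel gene, was higher by 1.45 (SE 0.30, adjusted p = 0.0094) in the younger corneas and by 2.07 (SE 0.26, adjusted p = 0.00016) in the adult ones. Rhbg, an ammonium transporter gene, was the 1 lower gene at PN11 (log2 -1.37, SE 0.30, adjusted p = 0.0129). At PN56, Car2 (1.71), Car12 (1.70) and Cftr, the epithelial chloride channel that acts with Slc26 exchangers (1.70, SE 0.29, adjusted p = 0.0013), were higher, as were Car4 and Atp2a3.

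With age, 11 partner genes were higher and 10 lower in WT, and 6 and 6 in Klf5CN, where 4.37% and 15.6% of all genes were higher and lower in WT and 4.8% and 13.4% in Klf5CN. The chloride channel regulator gene Clca2 rose by 2.47 in WT and 2.42 in Klf5CN. Stk39, the kinase that activates Slc12a2, fell by 2.07 (SE 0.27, adjusted p = 2.5e-05) and 1.53 (SE 0.27, adjusted p = 0.00041). The scaffold gene Slc9a3r2 fell by 1.85 and 1.87, and the secreted carbonic anhydrase gene Car6 by 1.92 and 2.00. None of the 3 sodium pump subunit genes tested (Atp1b1, Atp1b2 and Atp1b3) was past the threshold in any of the 4 comparisons. The pump's alpha subunits were not analysed here.

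Untested members were dim. The 17 genes (Slc12a1, Slc12a3, Slc12a8, Slc24a2, Slc24a4, Slc26a1, Slc26a3, Slc26a5, Slc26a8, Slc26a10, Slc4a1, Slc4a9, Slc8a1, Slc8a2, Slc8a3, Slc9a4 and Slc9b1) have 37 probe sets, of which 28 were Present on no array and 13 were at the lowest value kept on all 14. Their highest reading was 4.98. By family, 5 of 7 Slc4, 5 of 10 Slc26, 7 of 9 Slc9, 1 of 4 Slc8, 2 of 4 Slc24 and 5 of 8 Slc12 genes were tested. Low signal on a probe set does not show that a transcript was absent.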

How the data were processed

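Corneal RNA of 14 mice was measured on Affymetrix arrays. The intensity values deposited by the authors are signals made with GCOS 1.4 at its defaults and scaled so that the trimmed mean of each array was 150. Deposited with them were counts, per group, of the arrays on which a probe set was called Present, and 3 columns of the authors' pairwise changes, which were not used. The methods' rank rule was therefore tried without its criterion on pairwise comparisons. Both deposited tables held the same 631414 signals. Log2 values were computed here from the deposited signals, and signals under 10 were set to 10. Gene symbols came from the platform annotation (34958 probe sets with 1 symbol, 932 with several, 9211 with none).

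Testing was limited to probe sets above a signal of 20 on at least 3 arrays. A single limma model (version 3.58.1, R 4.3.3, lmFit and eBayes with trend) held the 4 groups, p-values were adjusted by Benjamini and Hochberg over 29416 probe sets, and the code was tested on simulated data. A lower limit was sought for called folds against a group Present on no array. Dim arrays were set at the higher of their own value and the lowest signal of probe sets Present on all arrays of the group. This changed no array, so such folds are the measured differences of means with the same SE, not lower limits. The number of arrays limits the precision: array medians ran from 25.9 to 35.2, replicates correlated at 0.94 to 0.98, and 57.8% of calls were Present.

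Members, gene lists and tests were chosen with earlier results of these data known. Genes are named if any of their tested probe sets passed in any comparison, if they had the highest mean signal of their family, or if their probe sets lay more than 2 log2 units apart in a comparison. Partner genes are the called genes, at most 4 per comparison by size. Chosen after the values were seen were the photoreceptor and neuron lists, Slc12a5, Slc4a10, Slc4a5, Slc4a8, Slc9a8, Slc9b2, Slc26a2, Slc26a6, Slc26a11, Rhbg, Car4 and Atp2a3. WT and Klf5CN mice were littermates, but the labels give no litter. Replicate numbers were not taken to pair the samples. The alternatives tried were other normalizations, floors, filters, probe set rules, fits, covariates and tests, and leaving out each array. Means over probe sets used tested probe sets only. Counts and figures were made with Python 3.11.15, pandas 2.3.3, numpy 2.4.6 and matplotlib 3.10.9.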

Additional observations from a re-analysis of the deposited data

Results flagged for a closer look

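Among 67 groups of 4 arrays looked at, 4 held an array far from the others, where chance gives about 1 in 20. Slc9a2 read 3.77 on PN56 WT replicate 3 and 3.32 on the other 3 arrays. Slc9b2, a sodium-proton exchanger gene Present on no PN56 array, read 3.77 on PN56 WT replicate 3 against 3.32, and 4.22 on PN56 Klf5CN replicate 1 against 3.32 to 3.34. Slc4a5, Present on 0 of 14 arrays, read 3.32 on PN56 Klf5CN replicate 3 against 4.64 to 4.92. All 4 involve the lowest value kept.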

How the results depend on the processing

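Of 22 calls of named probe sets, 11 held under each of the 27 or 28 alternatives that gave them a value, and 0 changed direction. Counts of member genes that moved are given for each comparison. Higher in Klf5CN at PN11 (1): 2 with the mean of all probe sets, with only the groups compared, with the Actb ratio as a covariate, under the methods' rank rule and, an alternative added after seeing the data, without both arrays of high 3-prime to 5-prime ratio, and 1 to 2 with 1 array left out (2 without PN56 WT replicate 2, PN56 Klf5CN replicate 3 or PN11 Klf5CN replicate 3). Higher at PN56 (3): 1 with signals under 32 set to 32, with a filter at 64 and, also added later, without the 3 photoreceptor arrays, and 2 to 5 with 1 array left out (5 without PN56 Klf5CN replicate 3). Higher with age in WT (1): 0 with signals under 32 set to 32, no filter, only the groups compared and the rank rule, 2 with the mean of probe sets and with no minimum fold, 3 with any probe set, and 0 to 1 with 1 array left out (0 without PN56 WT replicate 3 or 4 or any PN11 WT array). Lower with age in WT (5): 9 with no minimum fold and 5 to 7 with 1 array left out. Higher with age in Klf5CN (2): 1 with signals under 32 set to 32, no filter, a filter at 64 and without the 3 photoreceptor arrays, and 1 to 3 with 1 array left out (1 without PN56 Klf5CN replicate 1 or 2 or PN11 Klf5CN replicate 2). Other counts stayed within 1.5 times, lower in Klf5CN at 0. The test of the difference between ages was not run with only the groups compared or by the rank rule. The causes were not tested.

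With the replicate number as a block, 0 member genes were higher in Klf5CN at PN11, 0 higher with age in WT and 1 higher with age in Klf5CN. Slc26a4 alone was lost, with adjusted p-values of 0.058, 0.082 and 0.065. After each group's mean was subtracted, same-numbered WT and Klf5CN arrays of an age correlated at -0.20 to 0.09. Arrays of differing number correlated at -0.12 to 0.14, so the numbers are not taken to pair the samples. These correlations cannot exclude pairing by litter, which the labels do not give.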
